A study of Glycine max with 8 samples.

Results

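The vegetative storage protein genes of soybean (Glycine max) are described here at their 2 loci, VspA (Glyma.07G014500) and VspB (Glyma.08G200100), out of 47268 loci listed in the files. Both were chosen by name and not by a rule on their values, though with earlier results of these data known. Both passed the abundance filter that left 34023 loci for testing. The reference gene table of the Glycine_max_v4.0 assembly lists VSPA on chromosome 7 and a gene with the synonym VSPB on chromosome 8, the chromosomes given in the locus IDs. The files do not state a genome build, so no coordinates are given.

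Vegetative storage proteins are vacuolar glycoproteins that soybean plants build up in leaves and stems and later break down as a source of amino acids for growing organs. VspA and VspB encode closely related subunits, and their sequences belong to the same family as plant acid phosphatases. In soybean their transcripts are known to respond to jasmonate, wounding, sugars and the supply of nitrogen and phosphate, and they are low in roots.

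The study compared 2 genotypes of 2-week-old hydroponic seedlings, with 2 libraries per group, numbered 1 and 2. WT is the line WEI6823, labelled wild type for GmSIN1, and OE over-expresses GmSIN1, a gene for a NAC transcription factor. Each genotype received a mock treatment or 150 mM NaCl in the solution for 6 h, which gives the groups WT mock, WT NaCl, OE mock and OE NaCl. The mRNA libraries were made from equal parts of root and leaf RNA, so each value is an average over both organs. In such a mixture, fewer cells of a type and less RNA per cell cannot be told apart. The labels name no promoter, number of transgenic events or parent line for OE, nor how many plants a library holds. GmSIN1 itself was not assigned to a locus, and root or leaf marker genes could not be assigned either, so neither the over-expression nor the organ balance was checked.

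Library totals lay between 5980170 and 7199775 expected counts. An expected count is RSEM's estimate of the reads from a gene model, which need not be whole because a read that fits several models is divided among them. The WT libraries were close to each other, since the chi-square of their counts divided by its degrees of freedom was 1.41 at most within a group. Between WT mock and WT NaCl libraries it was 1.36 to 1.65, so on this measure salt hardly separated the WT libraries. Within the OE groups this value was 32.6 or more. The differences between OE libraries 1 and 2 were alike in both treatments (r = 0.742 over the loci tested, which are not independent replicates). Between OE mock and OE NaCl, the chi-square per degree of freedom was 2.52 for libraries numbered 2 and 21.0 for those numbered 1. Each OE library was thus closest to its namesake in the other treatment, but the likeness was close only for number 2.

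VspA was the most abundant transcript per coding length in all 8 libraries. Its count, scaled to the library total as CPM, was 22271 and 21695 in WT mock libraries 1 and 2, and 21261 and 21296 in WT NaCl libraries 1 and 2. In OE mock libraries 1 and 2 it was 18625 and 16832 CPM, and in OE NaCl libraries 1 and 2 it was 16545 and 16095 CPM. All 4 OE libraries thus lay below all 4 WT libraries. A single gene therefore held 2.23% of all counts in WT mock library 1 (95% Wilson interval 2.22% to 2.24%, counting error only), and 1.61% in OE NaCl library 2 (1.60% to 1.62%). On the FPKM scale, which divides by coding length, VspA reached 21247 to 29410.5 over the 8 libraries. That was 5.04 to 5.21 times the FPKM of the next highest locus in WT libraries and 2.62 to 3.57 times in OE libraries.

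VspB was far less abundant than VspA in every library, and its order between genotypes was the opposite one. In WT mock libraries 1 and 2 it had 644 and 629 CPM, and in WT NaCl libraries 1 and 2 it had 611 and 628 CPM. In OE mock libraries 1 and 2 it had 1709 and 2175 CPM, and in OE NaCl libraries 1 and 2 it had 2119.7 and 2083 CPM. The WT values lay within a narrow band, and the lowest OE value was far above it. By FPKM, VspB ranked 68 among all loci in each of the 4 WT libraries. It ranked 22 and 18 in OE mock libraries 1 and 2, and 15 and 19 in OE NaCl libraries 1 and 2.

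**Figure D1:**
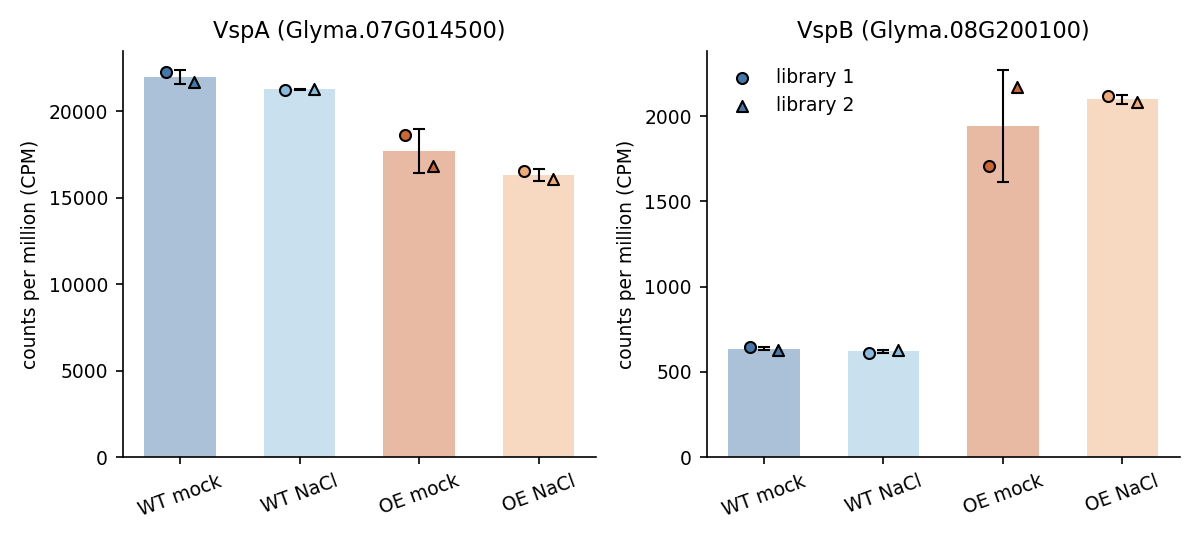
CPM of VspA (left) and VspB (right) in each group; points are single libraries (circle 1, triangle 2), bars are group means and error bars are SD (n = 2). VspA lies between 21261 and 22271 CPM in WT and between 16095 and 18625 CPM in OE, whereas VspB lies between 611 and 644 CPM in WT and between 1709 and 2175 CPM in OE.

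Whether the genotypes differed under mock treatment was tested first, with a fit over all loci. Mean VspB was 636 ± 10.5 CPM in WT and rose to 1942 ± 329 CPM in OE seedlings (SD, n = 2 per group), which is 3.05-fold in CPM. Fold and percent changes given here compare CPM means, whereas log2 fold changes were fitted after TMM scaling, described below, so they need not match. The fitted log2 fold change of VspB was 1.71 with a standard error of 0.25 (95% interval 1.12 to 2.31, adjusted p = 0.0154 in edgeR's quasi-likelihood test). In this comparison 8.92% of the loci tested were called, 4.2% of all tested being higher and 4.72% lower in OE, and 9.64% of loci had a log2 fold change at least as high as that of VspB. The call therefore puts VspB in a large class and does not set it apart from other loci. Mean VspA was 21983 ± 407 CPM in WT and 17729 ± 1268 CPM in OE seedlings (SD, n = 2 per group). Its log2 fold change was -0.22 with a standard error of 0.24 (95% interval -0.80 to 0.35, adjusted p = 0.556), so it did not pass the test.

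The same pattern was found under salt. Mean VspB rose 3.39-fold in CPM, the NaCl-treated WT seedlings having 619 ± 11.6 CPM and the OE seedlings 2101 ± 26.1 CPM (SD, n = 2 per group). The fitted log2 fold change was 1.79 with a standard error of 0.25 (95% interval 1.19 to 2.38, edgeR adjusted p = 0.0135). Here 7.89% of loci were called, 3.62% of all tested being higher and 4.27% lower in OE, and 8.91% had a log2 fold change at least as high. For VspA the WT seedlings had 21279 ± 24.7 CPM and the OE seedlings 16320 ± 319 CPM (SD, n = 2 per group). Its log2 fold change was -0.36 with a standard error of 0.24 (95% interval -0.93 to 0.21, edgeR adjusted p = 0.375).

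**Figure D2:**
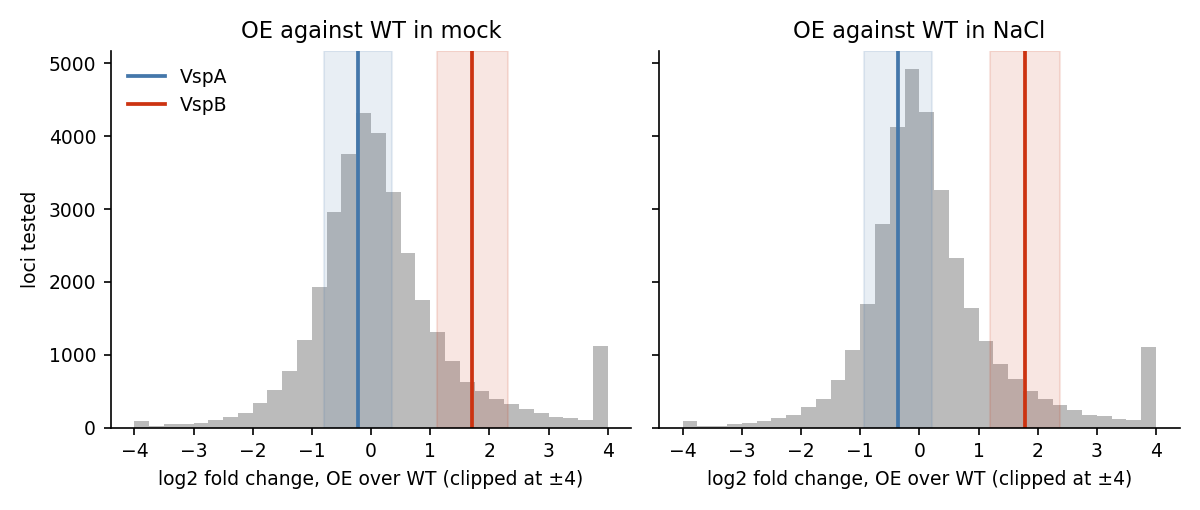
Distribution of the fitted log2 fold changes, OE over WT, of the 34023 tested loci in mock (left) and NaCl (right), in bins of 0.25, with values beyond the axis gathered in the end bins. Lines mark VspA and VspB and shaded bands their 95% intervals: VspA, at -0.22 and -0.36, lies in the bulk of loci, and VspB, at 1.71 and 1.79, in the upper shoulder.

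VspA did not overlap between genotypes although its test was not passed. All 4 OE libraries lay below all 4 WT libraries in CPM, which 21.6% of the tested loci also did, and 17.6% lay above as VspB did. The order of VspA held after TMM scaling, which corrects the totals for differences in composition: VspA then spanned 15632 to 18805 CPM in OE and 20869 to 21800 CPM in WT. The factor for OE mock library 2 was 0.895, and it moved VspA in that library from 16832 to 18805 CPM. The test used 1 spread per locus, estimated over all groups and drawn toward that of other loci. Across loci the common biological coefficient of variation was 32.9%, which is not the spread used for VspA itself. Within each group the VspA libraries had a coefficient of variation of 0.116% to 7.15%.

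The VspB call was lost in each fit that left out a WT library. In mock, the adjusted p in edgeR's test was 0.178 and 0.168 without WT mock library 1 or 2, and 0.0674 and 0.0602 without WT NaCl library 1 or 2. In NaCl, it was 0.177 and 0.157 without WT NaCl library 1 or 2, 0.0616 and 0.0562 without WT mock library 1 or 2, and 0.0723 with only the 4 NaCl libraries. The log2 fold changes in these fits were 1.71 to 1.72 in mock and 1.77 to 1.81 in NaCl. The number of called loci also fell in each of these fits. Nearly all calls were lost where the WT library left out belonged to a group being compared. Where it belonged to the other treatment, more loci were called, though not VspB. With only the 4 NaCl libraries, 173 loci were called, against 2686 in NaCl in the fit to all libraries, and VspB was not among the 173.

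**Figure D3:**
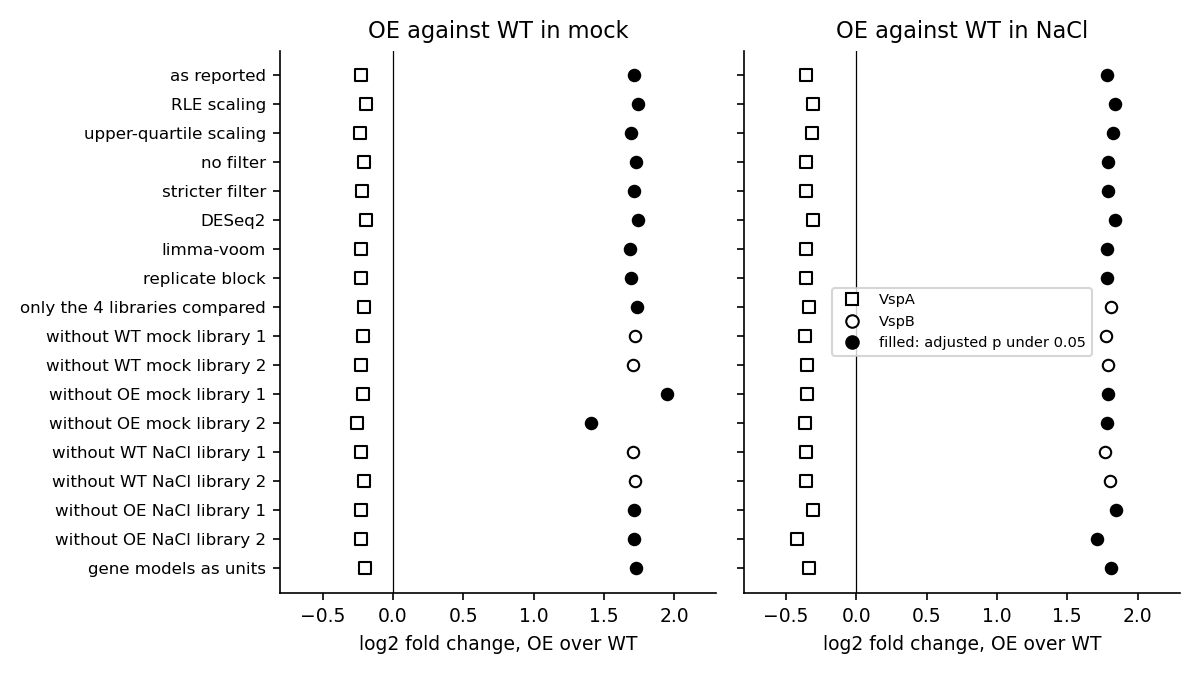
Fitted log2 fold changes, OE over WT, of VspA (squares) and VspB (circles) under each processing alternative, in mock (left) and NaCl (right); filled symbols have an adjusted p under 0.05. VspB stays between 1.41 and 1.95 in mock and between 1.71 and 1.85 in NaCl, its symbols are open in fits without a WT library, and in NaCl also with only the 4 libraries compared, and VspA is open throughout.

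Because both genes have a main model of 765 coding bases, their counts can be set against each other per length. VspB amounted to 2.89% and 2.90% of VspA in WT mock libraries 1 and 2, and to 2.87% and 2.95% in WT NaCl libraries 1 and 2. In OE mock libraries 1 and 2 the share was 9.18% and 12.9%, and in OE NaCl libraries 1 and 2 it was 12.8% and 12.9%. The share was nearly constant over WT libraries and over 3 OE libraries, while OE mock library 1 lay between these levels. VspA thus exceeded VspB 33.9- to 34.8-fold in WT and 7.73- to 10.9-fold in OE.

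The log2 ratio of VspB to VspA was 2.03 higher in OE than in WT with both treatments weighted equally, a 4.08-fold difference in the ratio. The ratio was higher in all 4 OE libraries than in any WT library. Such a separation follows wherever a locus above WT in all OE libraries is set against a locus below. Of the tested loci 17.6% lay above and 21.6% below, so the separation does not set this pair apart. The two-sided exact permutation test of genotype within treatment gave p = 0.0556, the smallest that its 36 arrangements allow, so 0.05 could not be reached. Any pair of loci separated in this way would give the same p. Since each OE library was closest to that of the same number, above all for number 2, the OE libraries count for less than 4 independent samples. The test of each gene on its own passed for VspB and not for VspA. This ratio is the direct comparison of the 2 genes.

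**Figure D4:**
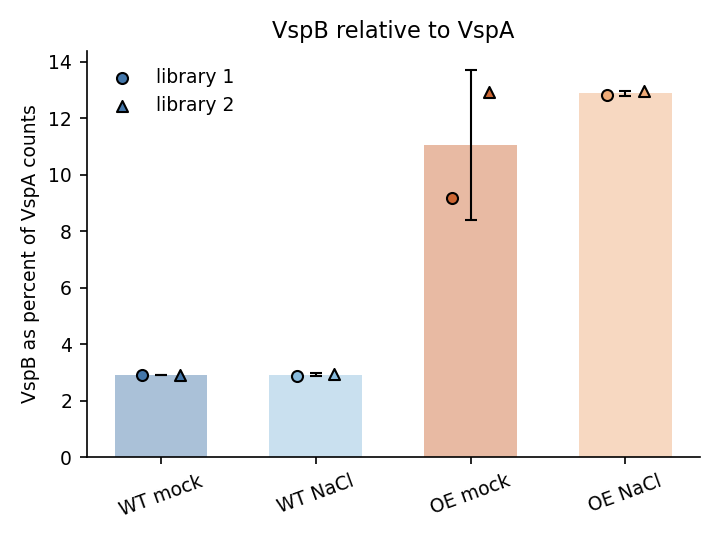
VspB as a percentage of VspA counts in each group; points are single libraries (circle 1, triangle 2), bars are means and error bars are SD (n = 2). WT libraries lie between 2.87% and 2.95%, OE mock library 1 lies at 9.18%, and the other 3 OE libraries lie between 12.8% and 12.9%.

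Reads that fit both genes would be divided between them by the estimate, so the level of the rarer gene is uncertain. The expected count was fractional in 8 libraries for VspA and in 7 for VspB, at a tolerance of 0.005. How many reads VspA and VspB shared was not tested. Their sum, which a division of reads between them cannot move, held 2.29% and 2.23% of counts in WT mock libraries 1 and 2 and 2.19% in both WT NaCl libraries. It held 2.03% and 1.90% in OE mock libraries 1 and 2, and 1.87% and 1.82% in OE NaCl libraries 1 and 2. With both genes counted as 1 locus, OE against WT had a log2 fold change of -0.11 in mock (standard error 0.25, edgeR adjusted p = 0.783) and -0.23 in NaCl (standard error 0.25, adjusted p = 0.593). VspB made up at most 2.86% of the sum in WT libraries and up to 11.5% in OE libraries.

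Salt was tested within each genotype. In WT, VspA was lower in both NaCl libraries than in both mock libraries, which 18% of tested loci were too, and its mean changed by -3.20%. The log2 fold change was -0.04 with a standard error of 0.24 (95% interval -0.61 to 0.53, edgeR adjusted p = 1). With only the 4 WT libraries it was -0.043, standard error 0.011 (95% interval -0.065 to -0.020, edgeR adjusted p = 0.274). The fit to all 8 libraries shared its spread with the variable OE libraries. In OE the NaCl libraries again lay below the mock libraries, as 7.32% of loci did, with a mean change of -7.95%. In the fit to all 8 libraries the log2 fold change was -0.18 with a standard error of 0.24 (95% interval -0.75 to 0.39, edgeR adjusted p = 1).

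VspB was also lower in both WT NaCl libraries than in both WT mock libraries, as 18% of tested loci were, with a difference of -2.65% between the means. The gap was narrow, with 627.7 CPM in WT NaCl library 2 and 628.9 CPM in WT mock library 2. In OE the VspB values overlapped between treatments. The WT log2 fold change was -0.04 with a standard error of 0.24 (95% interval -0.61 to 0.54, edgeR adjusted p = 1). With only the 4 WT libraries it was -0.035, standard error 0.033 (95% interval -0.102 to 0.033, edgeR adjusted p = 0.919). In OE, in the fit to all 8 libraries, it was 0.04 with a standard error of 0.24 (95% interval -0.54 to 0.62, edgeR adjusted p = 1). Between OE libraries numbered 1, VspB was 0.31 higher in NaCl on the log2 CPM scale, and between those numbered 2 the change was -0.06. The spread of the OE mock pair, 1709 against 2175 CPM, was larger than the difference between the treatment means.

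Whether the salt response differed between genotypes was tested as the interaction, and neither gene passed it. The estimate was -0.13 for VspA (95% interval -0.94 to 0.67) and 0.07 for VspB (95% interval -0.75 to 0.89), with an edgeR adjusted p of 1 for each. These intervals are wide. Across all 34023 tested loci edgeR called 0% for salt in WT, salt in OE and the interaction, and DESeq2 and limma-voom also called 0. In edgeR, 111, 507 and 231 loci had an unadjusted p under 0.05. Without any difference a share of 0.05 would be expected, which is far more, so 0% does not show that salt had no effect. With only the 4 libraries compared, 2037 of 30986 loci had such a p in WT and 15 were called. In OE, 27 of 32629 had such a p and 0 were called.

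The gene models within each locus did not change place. The 765-base model held at least 99.9% of the VspA count and at least 99.8% of the VspB count in every library. A second VspA model of 738 coding bases had 24.6 expected counts in WT mock library 1 and 0 in the other 3 WT libraries. In OE it had 71.6 and 10.8 counts in mock libraries 1 and 2, and 44.8 and 12.9 in NaCl libraries 1 and 2. A second VspB model of 666 coding bases had 8.19 counts in WT NaCl library 2, 8.20 in OE NaCl library 1 and 0 elsewhere.

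The 5 listed loci on each side of each gene were examined to see whether the VspB difference extended to its surroundings. Of 10 around VspA, 6 were tested, and of 10 around VspB, 9 were. None of these 15 was called in edgeR between genotypes, the lowest adjusted p being 0.0821 in mock and 0.0851 in NaCl. Since 8.92% and 7.89% of all tested loci were called, a count of 0 among so few does not set these loci apart. Their group means were between 1.64 and 273 CPM. Loci of equal coding length stood near both genes: 1518 bases at position -1 from VspA and -2 from VspB, and 2115 bases at position 4 after VspA and 3 after VspB. Homology of these loci was not tested.

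Of the 4 loci directly beside the storage protein genes, 3 differed between OE libraries 1 and 2 in the same direction in both treatments. Such differences were alike in both treatments over all tested loci (r = 0.742), and the share of loci agreeing in direction was not counted. The remaining neighbour, just before VspA, had 38.5 and 45.2 CPM in OE mock libraries 1 and 2 and 51.7 and 50.1 CPM in OE NaCl libraries 1 and 2. Glyma.07G014600, next after VspA and 795 coding bases long, had 62.8 to 72.9 CPM in WT libraries. It had 283 and 84.9 CPM in OE mock libraries 1 and 2, and 460 and 85.9 CPM in OE NaCl libraries 1 and 2 (log2 fold change 1.44 in mock, standard error 0.75, edgeR adjusted p = 0.24). The locus next before VspB (804 coding bases) was likewise higher in the OE libraries numbered 1, with 105 and 119 CPM, than in the other 6 libraries, which had at most 49.5 CPM. The locus next after VspB (816 coding bases) went the other way, with 37.5 and 5.96 CPM in OE libraries numbered 1 and 97.5 and 114 CPM in those numbered 2. VspB itself stayed above its WT range in all 4 OE libraries.

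**Figure D5:**
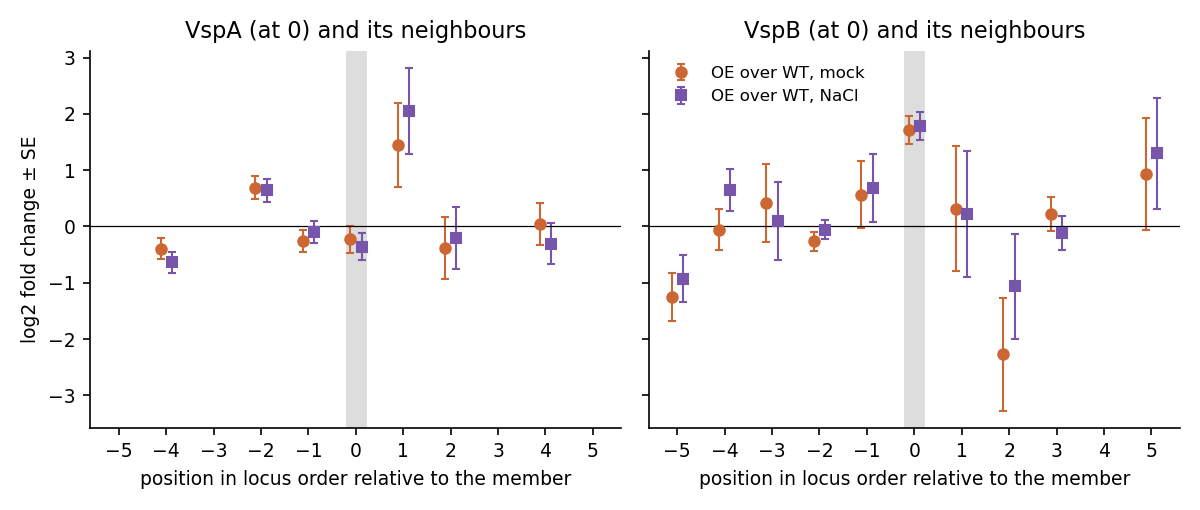
Fitted log2 fold changes (± standard error), OE over WT, of VspA (left) and VspB (right) at position 0 and of the tested loci among the 5 on each side in locus order; positions without a point were not tested. VspB, at 1.71 in mock and 1.79 in NaCl, has small errors, whereas the loci next to it lie between 0.22 and 0.68 with errors of 0.60 to 1.11.

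The loci whose level followed each gene most closely were found by the Pearson r of log2(CPM + 1) over the 8 libraries, among 21028 loci with a mean of at least 10 CPM in some group. The libraries fall into 2 genotypes, so r mostly reflects that division: 10.5% of these loci had an r of at least 0.9 with VspA and 7.88% with VspB. Closest to VspA was Glyma.13G217000 on chromosome 13 (r = 0.999), with 12.2 ± 0.20 and 6.24 ± 1.54 CPM in WT and OE mock and 11.2 ± 0.21 and 4.59 ± 0.41 CPM in WT and OE NaCl (SD, n = 2). This locus and the others named by likeness were picked for their likeness over the same libraries, so their levels are only a description. They were among the loci tested, but after such a pick a test cannot serve as support, and none is given for them. The next in order lay on chromosomes 9 and 19 (r = 0.993 and 0.992).

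Closest to VspB was Glyma.06G142900 on chromosome 6 (r = 0.999). It had 23.7 to 27.0 CPM in WT libraries, 336 and 541 CPM in OE mock libraries 1 and 2, and 496 and 447 CPM in OE NaCl libraries 1 and 2. The next in order lay on chromosomes 17 and 9 (r = 0.999 for both), and the one on chromosome 9 had 0 counts in all WT libraries.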

How the data were processed

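The 8 deposited tables, 1 per library, were used. CPM is a count per 1000000 counts of the library. The authors made the expected counts and FPKM values with RSEM, per the submitters' processing notes; no version, aligner, strand setting, genome build or annotation release is named there. Per the file headers, each table also gives a coding length per model. The lowest expected count in any table is 0.01, and a model missing from a table was set to 0. The models of each locus were added up and the sum rounded. Groups and numbers came from the labels, where nothing says that a group's libraries came from separate plants, so the spread behind each p-value may be technical. A count of 0 allows 3 counts, below 0.51 CPM in each library.

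The quasi-likelihood test of edgeR 4.0.16 (R 4.3.3) was fitted to all 8 libraries together, with a coefficient for each group, TMM scaling and the default filterByExpr filter, which leaves 4 residual degrees of freedom, with Benjamini-Hochberg adjustment over all tested loci and a threshold of 0.05. Standard errors were derived from the F statistic. Alternatives were DESeq2 1.42.0, limma 3.58.1 with voom, scaling by RLE or by the upper quartile, omitting the filter, requiring 1 CPM in 2 libraries with 40 counts in all, a replicate block, only the 4 libraries compared, models as units, and each library left out. The sum of both genes was added after the data were seen. The scripts were also run on simulated counts that gave each locus the same spread in all libraries. The WT and OE libraries here differ in spread, so that run does not bear on the calls. Named loci were both genes, 5 neighbours on each side and the 3 loci most like each gene, fewer being printed by ID. The members, lists and rules were chosen with earlier results of these data known. Lists of jasmonate, phosphate, nitrogen and organ marker genes were not used here, since 0 entries of the reference table carry a locus ID of the files.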

Additional observations from a re-analysis of the deposited data

How the results depend on the processing

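All results for VspA kept their direction and stayed short of the threshold under all alternatives run, with log2 fold changes of -0.26 to -0.19 in mock and -0.43 to -0.31 in NaCl for OE over WT. VspB was higher in OE in every alternative. Its log2 fold change ranged from 1.41 (without OE mock library 2) to 1.95 (without OE mock library 1) in mock and from 1.71 to 1.85 in NaCl over fits that left out 1 library. The adjusted p of these fits ranged from 0.00398 to 0.178 in mock and from 0.00788 to 0.177 in NaCl, and with only the 4 NaCl libraries the value was 1.81 (adjusted p = 0.0723). These fits have fewer samples, but the VspB call was lost only in those without a WT library and, in NaCl, with only the 4 libraries compared. The salt change of VspB in OE turned with the library left out, from -0.18 to 0.34, and so did its interaction, from -0.15 to 0.37; the cause was not tested. The difference in the log2 ratio of VspB to VspA was 2.03 with FPKM and with the longest model, and 1.90 to 2.15 with 1 library left out. Permuting genotype over all 8 libraries, with 70 arrangements, gave the same 2.03 with an exact p = 0.0286, the smallest possible. Any pair of loci separated in this way would give the same p.

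With the replicate block, VspB was 1.70 higher in OE in mock and 1.78 in NaCl (edgeR adjusted p = 0.0136 and 0.0115), and the block changed no call for either gene. It moved the number of called loci in mock from 3036 to 4671 and in NaCl from 2686 to 4118. The numbers tie the OE libraries but not the WT libraries: deviations from group means correlated at 0.742 between the OE groups and at -0.0103 to 0.0093 between the other pairs of groups. The block over all 8 libraries is therefore no paired analysis of the study. The number of called loci also moved by over 1.5 times with DESeq2 (5146 in mock, 4620 in NaCl), with models as units (1193 and 1076), with only the 4 libraries compared in NaCl (173), and with 1 library left out (1 to 8137 in mock, 0 to 7204 in NaCl). For salt in WT it was 15 with only the 4 libraries compared, and for salt in OE and the interaction it was 218 and 57 without OE NaCl library 2. The lowest count of either gene in any library was 3849.9, for VspB in WT mock library 1.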
